A study of Mus musculus with 36 samples.

Results

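Myostatin (gene Mstn) and follistatin (gene Fst) were followed in mouse diaphragm, the main breathing muscle, in control mice and in mdx mice, at 7, 14, 23, 28, 56 and 112 days of age. The members are all probe sets whose annotation names either gene. There were 2 of them among 12422 probe sets without the array maker's controls, which is 1 for each gene. The pair was selected on earlier mdx minus control results of these same arrays, so the differences between genotypes are given below as a description with no test. The data are 1-colour Affymetrix arrays of total RNA, with 3 arrays in each of 12 groups of age and genotype and 36 arrays in all. The mdx mouse carries a point mutation of the dystrophin gene Dmd on all its arrays and serves as a model of muscular dystrophy. The labels call the other animals control mice or wild type and give no strain or sex, and they do not say whether animals were pooled. Replicates are numbered without a statement that they are separate animals, so p-values rest on how far these arrays scatter, part of which could be technical scatter alone.

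Myostatin is a secreted protein of the TGF-beta family that is made mainly by skeletal muscle fibres and limits how large they grow. Its precursor is cut by furin-type proteases and kept latent by its own propeptide until proteases of the Bmp1 and tolloid kind release it. Free myostatin binds the activin receptors Acvr2b and Acvr2a together with Acvr1b or Tgfbr1, and the signal passes through Smad2 and Smad3. Follistatin is a secreted protein that binds activins and myostatin and keeps them from their receptors, so that more follistatin or less myostatin favours muscle growth.

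Mstn lies on chromosome 1 at 53061640 to 53068079 and Fst on chromosome 13 at 114452262 to 114458989 (RefSeq, GRCm38.p6). The 250 bases before the start of Mstn (RefSeq, GRCm38.p6, chr1:53061390-53061639, plus strand) are shown alone because no promoter sequence of Fst was available here. The genes of factors that read E-boxes are among the pathway genes below. The capitals mark 4 matches to the E-box CANNTG, the motif read by myogenic factors such as Myod1 and Myog, 1 CCAAT and 1 TATAAA, all searched on both strands and without overlap here.
Mstn, 250 bases before the start: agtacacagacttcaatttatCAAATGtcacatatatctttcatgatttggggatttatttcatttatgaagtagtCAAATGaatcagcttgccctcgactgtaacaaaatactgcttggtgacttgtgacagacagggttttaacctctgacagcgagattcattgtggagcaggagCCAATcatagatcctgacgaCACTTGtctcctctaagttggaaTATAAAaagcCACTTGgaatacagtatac
Counted back from the start, the E-box matches begin at bases -229, -174, -52 and -19, CCAAT at -72 and TATAAA at -29. Of 27025 promoter windows of this length, 66.0% held CANNTG, 34.5% held CCAAT and 13% held TATAAA. The MEF2 motif was not found in this window and was found in 3% of the windows. These matches describe letters and say nothing of binding.

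As facts of the whole series, pairs of replicate arrays had r of 0.884 to 0.975, and array medians lay between 450.9 and 725.2. Creatine kinase (Ckm), a defining product of skeletal muscle, read 13125 or more on all 36 arrays, while the fibre myosin Myh2 read at most 467.2. Albumin (Alb), a product of liver, read above 10000 on 9 arrays, the high-albumin arrays: at 7 days control 3 and mdx 1, at 14 days controls 2 and 3 with mdx 3, at 56 days control 1, and at 112 days controls 2 and 3 with mdx 2, by replicate number. The Gapdh control ratio, the signal of the 3' end of the transcript over that of its 5' end, ran from 0.0357 to 0.971. It was thus below 1 on all 36 arrays, the 5' end reading the brighter, and the reason was not tested. At 7 days, where both members were lower in mdx, that ratio was 0.147, 0.0555 and 0.0357 on the control arrays and 0.830, 0.320 and 0.704 on the mdx arrays. With the ratio as a covariate the 7-day differences given below became -0.70 for Mstn and -0.59 for Fst.

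In mdx diaphragm Mstn read lower than in control at every age studied, and Fst read lower in mdx at 7 days and had the higher mean in mdx at the other 5 ages. Signals are the deposited linear intensities, log2 differences are of signal + 32, with an SE from a fit that pools the spread over the 12 groups, and levels are not compared between the genes, since probe sets differ in brightness. Over its 18 arrays of a genotype, Mstn ran from 1010.5 to 3690.3 (median 1698.1) in controls and from 474.1 to 1853.4 (median 1031.9) in mdx. Fst ran from 88.4 to 1278.6 (median 418.9) in controls and from 390.0 to 1315.0 (median 726.0) in mdx. Among all probe sets of an array, Mstn stood between percentiles 42.6 and 87.6 and Fst between 14.1 and 67.9.

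**Figure D1:**
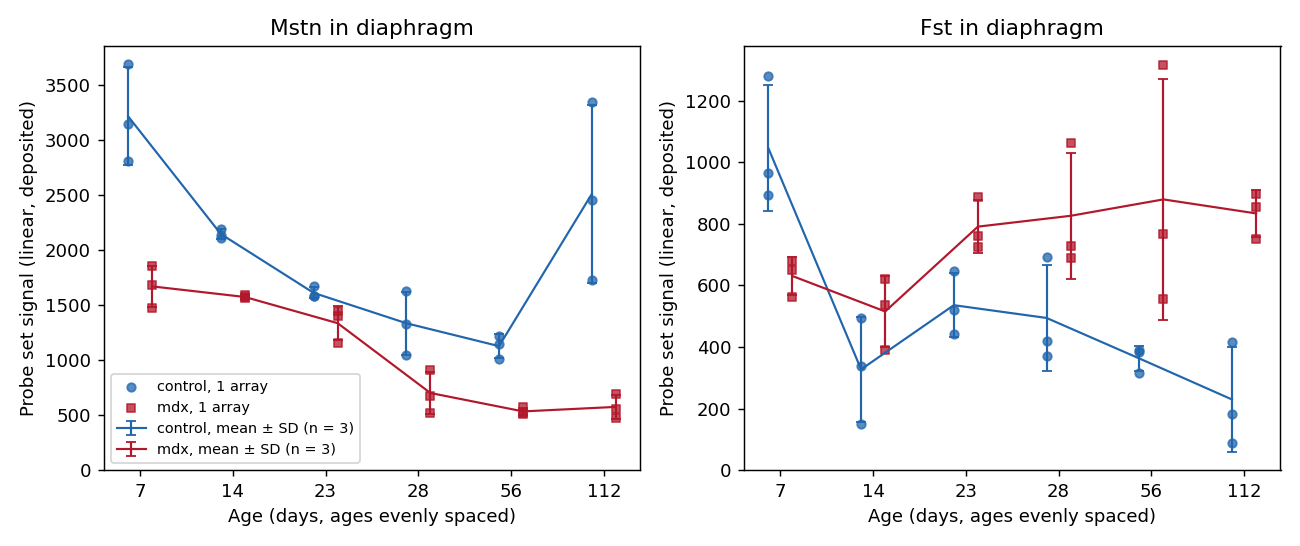
Signal of Mstn (left) and Fst (right) on each array (points) against age in days, with the mean ± SD of 3 arrays joined by lines, for control (blue circles) and mdx (red squares). The mdx arrays lie below the control arrays for Mstn at all 6 ages. For Fst they lie below at 7 days and above at 23, 56 and 112 days.

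At 7 days the control arrays read 3141.9, 3690.3 and 2806.6 for Mstn (3213 ± 446, SD, n = 3) and the mdx arrays 1853.4, 1678.6 and 1474.5 (1669 ± 190). All mdx arrays lay below all control arrays, the control mean being 1.93 times the mdx mean, and the log2 difference was -0.93 ± 0.194 (SE). At 14 days the controls read 2108.1, 2189.9 and 2135.0 (2144 ± 41.7) and mdx 1569.3, 1588.1 and 1560.7 (1573 ± 14.0). These groups did not overlap, with a log2 difference of -0.44 ± 0.194. At 23 days the controls read 1577.1, 1668.2 and 1585.6 (1610 ± 50.3) and mdx 1157.0, 1400.6 and 1447.2 (1335 ± 156). This was the age with the smallest gap between genotypes, still without overlap. The log2 difference was -0.27 ± 0.194, only somewhat larger than its standard error, and it was -0.17 without mdx replicate 1, the array that read 1157.0.

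At 28 days the control arrays gave Mstn signals of 1049.3, 1331.4 and 1622.8 (1335 ± 287), and the mdx arrays gave 518.8, 677.7 and 906.8 (701.1 ± 195). The log2 difference was -0.91 ± 0.194 and the arrays again did not overlap. At 56 days controls read 1010.5, 1221.6 and 1147.3 (1126 ± 107) and mdx 517.9, 572.0 and 512.2 (534.0 ± 33.0). The control mean was 2.11 times the mdx mean, a log2 difference of -1.03 ± 0.194, or -1.28 after quantile normalization, which brings the median of all tested probe sets at this age from 0.15 to 0.005. At 112 days controls read 3341.6, 2451.8 and 1728.0 (2507 ± 808) and mdx 474.1, 558.6 and 692.3 (575.0 ± 110). This was the widest gap, 4.36 times between the means and -2.03 ± 0.194 on the log2 scale, although the control arrays differed from each other more than at any other age. The mean over the 6 ages was -0.94 ± 0.079 (SE).

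Fst, the binding partner that holds myostatin and activins, read 1278.6, 965.2 and 893.6 in controls at 7 days (1046 ± 205, SD, n = 3) and 562.5, 650.5 and 678.7 in mdx (630.6 ± 60.6). All mdx arrays lay below all control arrays, a log2 difference of -0.69 ± 0.361 (SE), less than 2 standard errors. At 14 days controls read 337.9, 493.3 and 151.2 (327.5 ± 171) and mdx 536.0, 620.6 and 390.0 (515.5 ± 117). The genotypes overlapped at this age, and the difference of 0.71 ± 0.361 was also less than 2 standard errors. It became 0.29 without control replicate 3, the array that read 151.2. At 23 days controls read 441.4, 645.6 and 520.9 (536.0 ± 103) and mdx 759.4, 725.2 and 888.4 (791.0 ± 86.1). These did not overlap, with a log2 difference of 0.55 ± 0.361, less than 2 standard errors.

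At 28 days the Fst signals of the control arrays were 371.8, 691.8 and 419.9 (494.5 ± 173), and those of the mdx arrays 1061.1, 726.8 and 690.6 (826.2 ± 204). The highest control array lay just above the lowest mdx array, and the log2 difference was 0.73 ± 0.361. At 56 days controls read 315.2, 391.1 and 382.8 (363.0 ± 41.6) and mdx 1315.0, 767.8 and 555.4 (879.4 ± 392). All mdx arrays were above all control arrays, by 2.42 times between the means and 1.13 ± 0.361 on the log2 scale, with mdx replicate 1 far above its group. At 112 days controls read 88.4, 417.8 and 183.0 (229.7 ± 170) and mdx 897.0, 854.6 and 750.0 (833.9 ± 75.7). The mdx mean was 3.63 times the control mean and the log2 difference 1.93 ± 0.361, which was 1.47 without control replicate 1 and 2.42 without control replicate 2. The mean over the 6 ages was 0.73 ± 0.148 (SE), from a value below 0 at 7 days and values above 0 afterwards.

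**Figure D2:**
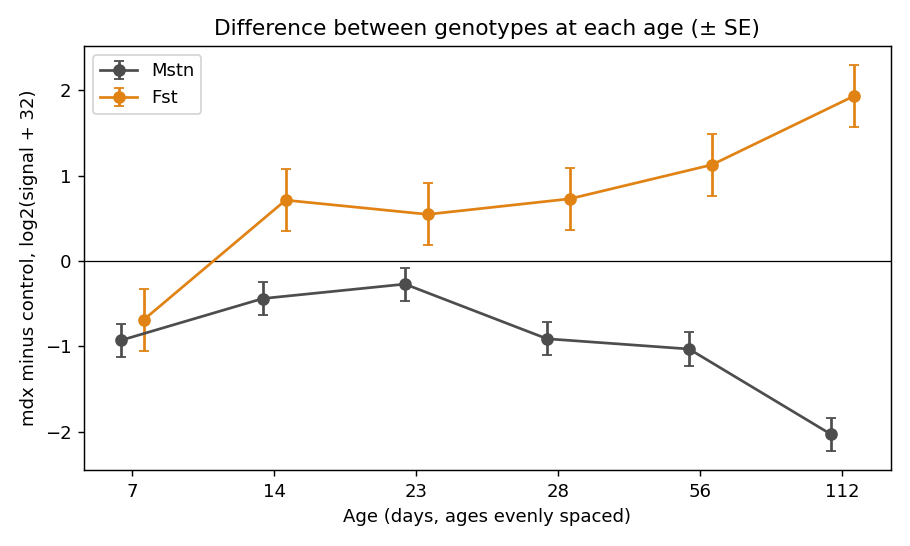
Difference between mdx and control in log2(signal + 32) against age, with the standard error of the fit as bars, for Mstn (grey) and Fst (orange). Mstn lies below 0 at each age, from -0.27 at 23 days to -2.03 at 112 days, and Fst goes from -0.69 at 7 days to 1.93 at 112 days.

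In counts, the genotypes did not overlap at 6 of 6 ages for Mstn and at 4 of 6 for Fst. The share of all 9286 tested probe sets without overlap, in either direction, was, in order of age, 15.4%, 12.9%, 22.9%, 21.5%, 36.9% and 23.5%. Since this contrast chose the genes, nothing is read from the counts. The sign of both genes' differences was the same in each of 47 alternative fits at each age and 46 for the mean. Most of the 47, such as fits without an array of another age, could not change the value, so their sign was fixed. The ranges are given in the closing section.

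The change with age, averaged over both genotypes, was tested, because in this balanced design it is independent of the difference between genotypes that chose the genes. Between 7 and 112 days Mstn fell by 0.95 ± 0.137 in log2 units (SE, adjusted p = 2.05e-06), and Fst fell by 0.92 ± 0.256 (adjusted p = 0.00425), or by 1.48 without the high-albumin arrays. Both also passed the F test over the 6 ages, with adjusted p = 4.89e-10 for Mstn (F = 35.1) and adjusted p = 0.00606 for Fst (F = 4.48). The Fst value was 7.08 after quantile normalization, 7.30 without the high-albumin arrays and 7.18 without 112-day control replicate 2. With the Gapdh ratio as a covariate the Fst test was no longer passed (F = 2.49, adjusted p = 0.0723). Most probe sets changed with age: 44.6% of all tested were called between 7 and 112 days and 76.9% in the F test.

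The paths of each genotype are given here as values. From 7 to 112 days Mstn differed by -0.40 ± 0.194 (SE) in controls and by -1.50 ± 0.194 in mdx. Between 7 and 56 days the values were -1.48 in controls and -1.58 in mdx. From 56 to 112 days the control value was 1.09 higher and the mdx value 0.09 higher, each with an SE of 0.194. Fst differed by -2.23 ± 0.361 between 7 and 112 days in controls and by 0.39 ± 0.361 in mdx. Whether these paths differ was not tested, since that difference is part of the contrast that chose the genes.

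Step by step, averaged over genotypes, Mstn moved by -0.32 from 7 to 14 days (adjusted p = 0.0599, 40.1% of probe sets called), or by -0.17 with the Gapdh ratio as a covariate. From 14 to 23 days it fell by 0.32 (adjusted p = 0.043), a step in which 60.6% of probe sets were called and the median of all tested was -0.20. After quantile normalization that step was -0.17 and no call (adjusted p = 0.254), and the call was also lost in 11 of the 12 fits that left out an array of these ages. With albumin as a covariate it was -0.62 (adjusted p = 0.00519). From 23 to 28 days Mstn fell by 0.61 (adjusted p = 0.00689, 9.26% called), its largest step. From 28 to 56 days it moved by -0.28 (adjusted p = 0.15, 18.1% called), which was a call after quantile normalization (-0.41, adjusted p = 0.0233) and with array weights (-0.31, adjusted p = 0.0448), while it was -0.16 with the Gapdh ratio as a covariate and -0.18 without 28-day mdx replicate 3. From 56 to 112 days it rose by 0.59 (adjusted p = 0.0292), in a step in which only 1.18% of probe sets were called. Each of these steps has an SE of 0.137. The last rise was no call when 56-day control 1 (0.55, adjusted p = 0.0738), 56-day control 3 (0.59, 0.0541), 56-day mdx 1 (0.58, 0.0779), 112-day control 1 (0.47, 0.0752) or 112-day mdx 3 (0.52, 0.0975) was left out, the numbers being replicates.

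Fst fell by 0.99 ± 0.256 (SE) from 7 to 14 days (adjusted p = 0.00316) and rose by 0.69 from 14 to 23 days (adjusted p = 0.0211). After quantile normalization this rise was 1.15 (adjusted p = 0.000602). It was no call when 14-day control 3 (0.48, adjusted p = 0.0994), 14-day mdx 3 (0.60, 0.0585), 23-day control 2 (0.62, 0.0518) or all high-albumin arrays (0.52, 0.0862) were left out. Its later steps were -0.05, -0.17 and -0.39, with adjusted p of 0.474 or more.

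Ordered by their means, the control ages ran 7, 112, 14, 23, 28 and 56 days for Mstn. Of the neighbours in this order, 14 and 23 days did not overlap, while the arrays of 112 days spread across those of 7 and 14 days, and 23, 28 and 56 days overlapped in turn. The mdx ages ran 7, 14, 23, 28, 112 and 56 days, with gaps between 14 and 23 and between 23 and 28 days and overlap elsewhere. For Fst the control order was 7, 23, 28, 56, 14 and 112 days, and only 7 days stood clear of its neighbour. The mdx order for Fst was 56, 112, 28, 23, 7 and 14 days, with a gap only between 23 and 7 days.

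The relation between the genes was tested between arrays of one group, since the changes between groups are part of what chose the pair. When each array was taken as its deviation from the mean of its own group, r over all 36 arrays was -0.202 (2-sided permutation within groups, p = 0.569) and Spearman's rho -0.075 (p = 0.716). Without the 2 arrays farthest from the median of Mstn that r was -0.071, so no relation was detectable between replicates. All arrays of one genotype also hold the change with age, and their r is given as a description with no test. Over the 18 mdx arrays, which are 6 ages of 3 arrays, r was -0.592 and rho -0.649, and over the 18 control arrays r was 0.15 and rho 0.257. Deviations within groups had r = -0.37 in the 18 mdx arrays and -0.124 in the 18 control arrays, also as a description.

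**Figure D3:**
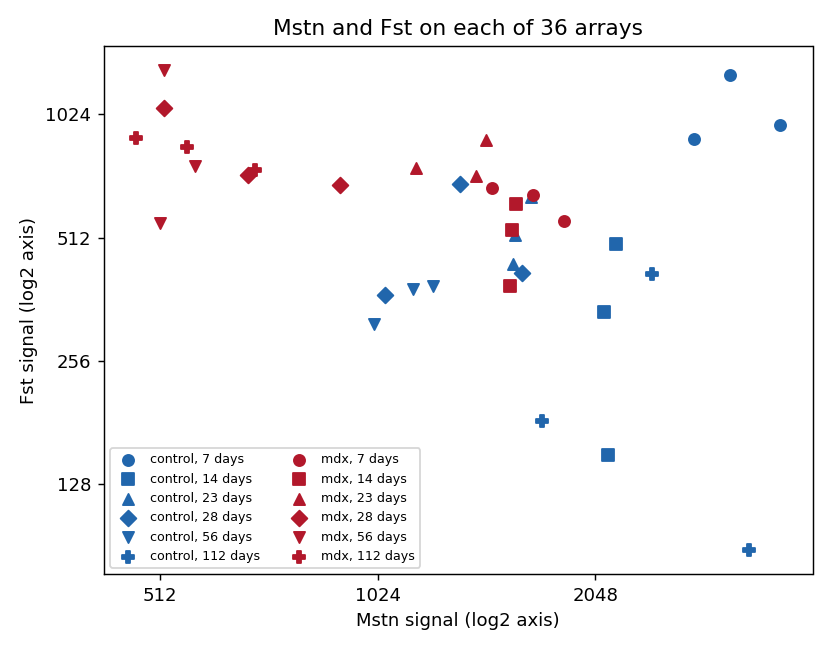
Fst signal against Mstn signal on each of the 36 arrays, both on log2 axes, with genotype by colour and age by shape. The mdx arrays of 28, 56 and 112 days lie at the upper left, with Mstn below 907, while the control arrays of 7 days lie at the upper right and those of 112 days range down towards the lower right.

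The genes whose log2 signal ran most like that of Mstn over the 36 arrays, among 6792 genes, were Tnks2, a tankyrase (r = 0.765), Fbp2, the fructose bisphosphatase of muscle (0.754), Amotl2 (0.721), the deubiquitinase Usp9x (0.704) and the myelin gene Mbp (0.7). The most opposite were the dehydrogenase Dhrs7 (-0.862), the lysozyme gene Lyz2 (-0.836) and the complement gene C1qa (-0.834), of which the last 2 are made by macrophages. Within control arrays alone these 3 had r of -0.82, -0.669 and -0.718, so r was below 0 there too. Of the genes most like Mstn, Amotl2 had r = 0.249 within control arrays and 0.881 within mdx arrays, and the other 4 had 0.507 or more in controls and 0.529 or more in mdx. For Fst the most alike were the thymosin Tmsb10 (0.78), nucleolin (Ncl, 0.779), the metalloprotease Adam19 (0.763), the hyaluronan receptor Cd44 (0.763) and Cdc42se1 (0.758). Within mdx arrays alone these 5 had r between 0.255 (Ncl) and 0.546 (Cd44), lower than within control arrays, where r was 0.719 or more. The most opposite to Fst were lipoprotein lipase (Lpl, -0.754), the tubulin Tuba8 (-0.739) and Pde4dip (-0.738), with r of -0.408, -0.371 and -0.415 within mdx arrays and -0.843, -0.774 and -0.793 within control arrays. The r between Mstn and Fst was -0.365, which placed Fst at rank 6269 of 6792 from the top of the Mstn order. These correlations share the arrays, their scaling and the ages, and are a description.

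Of 71 further genes listed for the pathway, 57 were on the array and 47 passed the filter on low signal. In mdx minus control, 0 of the 47 were called at 7 days and 0 at 14 days by limma, where 0.463% and 0.194% of all probe sets were called. An unadjusted p under 0.05 was found for 8 and 3 of the 47. The share of all probe sets with such a p is not given, so nothing is read from these counts. At 23 and 28 days 3 of 47 (6.38%) were called, against 3.49% and 2.96% of all. At 56 days 11 of 47 (23.4%) were called, all higher, against 16.6%, and the list's median difference was 0.31 beside 0.15 for all tested probe sets. At 112 days 7 were higher and 2 lower (19.1%), against 12.2%, with medians of 0.00 and 0.01. For the mean over ages 7 were higher and 1 lower (17%), against 17.8%, a share near that of all probe sets. From 7 to 112 days, over both genotypes, 8 pathway genes rose and 13 fell (44.7% against 44.6%).

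**Figure D4:**
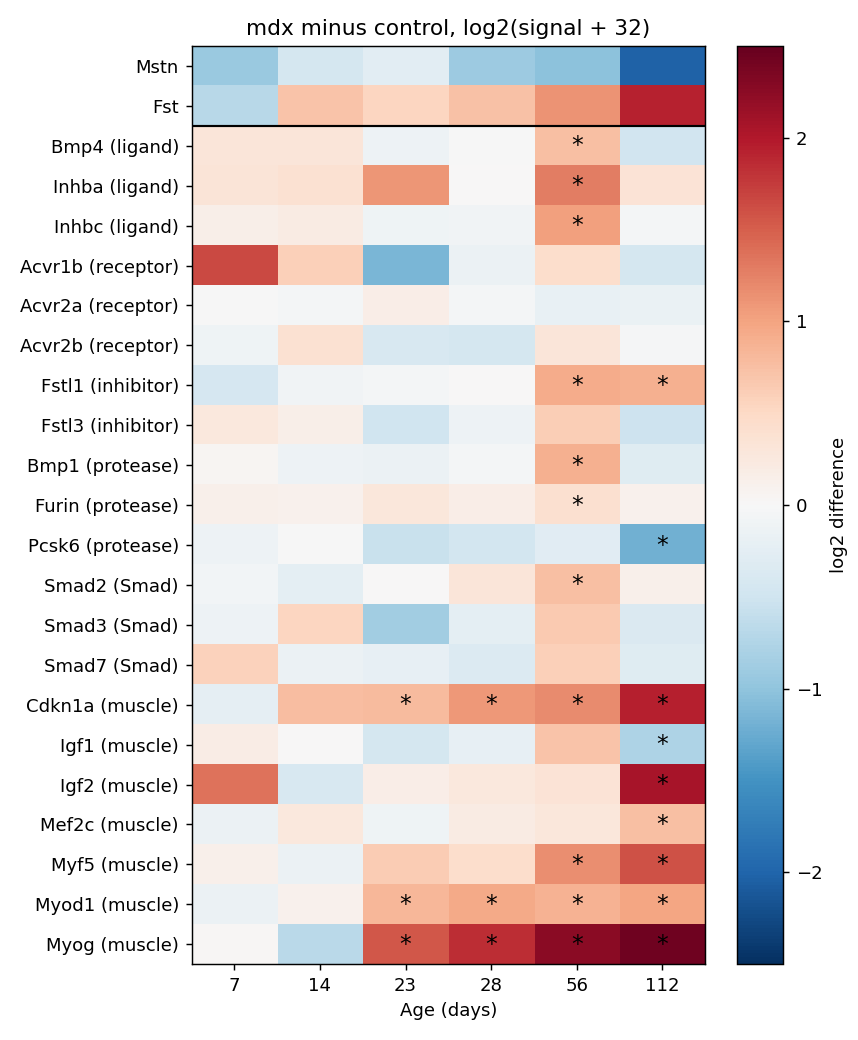
Difference between mdx and control in log2(signal + 32), as colour, at each of 6 ages (columns). The top rows are Mstn and Fst, and the named pathway genes stand below the line, with their list in brackets. A star marks an adjusted p under 0.05 for the pathway genes; Mstn and Fst carry none because they were not tested. Stars are absent at 7 and 14 days and most numerous at 56 days.

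Of the 5 tested ligand genes on the pathway list, 3 were called higher in mdx at 56 days, an age at which 16.6% of all probe sets were called. Of these 3 calls, only that of Bmp4 held with each array left out. At that age the activin subunit gene Inhba read 278.8 ± 228 (SD, n = 3) on control and 562.7 ± 207 on mdx arrays, a rise of 1.27 ± 0.448 (SE, adjusted p = 0.0491) that was 0.45 and no call without control replicate 1 (adjusted p = 0.483). That call was also lost in 34 other alternative fits. Inhbc, another activin subunit gene, rose by 1.02 ± 0.322 at 56 days (adjusted p = 0.0269). Leaving out control 2 (0.80, adjusted p = 0.149), mdx 1 (1.00, 0.0776) or mdx 2 (0.92, 0.0905) ended this call. Bmp4, a bone morphogenetic protein, rose by 0.75 ± 0.168 (adjusted p = 0.00224), but its second, dimmer probe set gave 0.09 without a call. In a fit of the 6 arrays of that age alone the Bmp4 call was lost (adjusted p = 0.0524). Gdf11, the closest relative of Mstn, was on the array but did not pass the filter on low signal.

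None of the 7 tested receptor genes was called in mdx minus control by limma at any age. An unadjusted p under 0.05 was found for 1 of them at 7 days, 2 at 23 days and 0 at the other ages. These counts too have no share of all probe sets beside them, and nothing is read from them. Acvr2b, the main receptor of myostatin, had a mean of 1588 in controls and 1514 in mdx over all ages, with a mean log2 difference of -0.05 ± 0.091 (SE, adjusted p = 0.75). Acvr2a had 1787 and 1716, with -0.05 ± 0.066 (adjusted p = 0.688). Acvr1b, the partner receptor, was dim, with means of 300.3 and 353.5 and a difference of 0.16 ± 0.208 (adjusted p = 0.673).

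The list of extracellular inhibitors other than Fst is a broad one, and 6 of its genes were tested: Fstl1, Fstl3, Dcn, Nog, Ltbp3 and Tcap. Whether a gene on it inhibits myostatin was not tested here. Of these 6, only the follistatin-like gene Fstl1 was called. That is 16.7% at 56 and at 112 days, against 16.6% and 12.2% of all probe sets. Fstl1 rose by 0.92 ± 0.185 (SE, adjusted p = 0.000785) at 56 days, from 1535 ± 154 on control to 3004 ± 891 on mdx arrays. At 112 days it rose by 0.90 ± 0.185 (adjusted p = 0.001), from 1317 ± 166 to 2479 ± 296, which was no call once high-albumin arrays were dropped (0.76, adjusted p = 0.096). Its mean over ages (0.21 ± 0.075, adjusted p = 0.0467) was called too but lost in 28 of 46 alternative fits. Fstl3, a closer homologue of follistatin that also binds myostatin, had a mean difference of -0.02 ± 0.187 (adjusted p = 0.956).

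Of 4 tested proteases, Furin, which cuts the myostatin precursor, rose by 0.39 ± 0.122 (SE) at 56 days (adjusted p = 0.0255) and by 0.20 ± 0.05 as a mean over ages (adjusted p = 0.00497). Leaving out control 1 (0.38, adjusted p = 0.0755), control 2 (0.32, 0.133), mdx 1 (0.32, 0.129) or mdx 3 (0.39, 0.0548) ended the 56-day call of Furin. Bmp1, which frees latent myostatin, rose by 0.90 ± 0.195 at 56 days (adjusted p = 0.00174) and by 0.86 in its dimmer probe set (adjusted p = 0.00724). At 112 days these probe sets parted, the brighter giving -0.30 without a call and the dimmer a rise of 0.88 (adjusted p = 0.00683). Pcsk6, a furin relative, fell by 1.19 ± 0.272 at 112 days (adjusted p = 0.00277), and by 0.43 as a mean over ages (adjusted p = 0.00519). Leaving out mdx 3 ended the 112-day call (-0.70, adjusted p = 0.0517), as did a limma fit of that age alone (adjusted p = 0.12). Without the high-albumin arrays, which leaves 1 control array at that age, the difference was -1.36.

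Of 9 tested Smad signalling genes 1 was called, at 56 days (11.1%, against 16.6% of all probe sets at that age). Smad2, the carrier of the myostatin signal, rose by 0.75 ± 0.214 (SE) at 56 days (adjusted p = 0.0137). It was no call if control 2 (0.68, adjusted p = 0.0662) or mdx 1 (0.61, 0.0953) was left out, or after quantile normalization (0.58, 0.0554). A dimmer probe set of Smad1, which carries BMP signals, rose by 0.50 at 112 days (adjusted p = 0.0108). Smad3 was dim and gave a mean difference of -0.06 ± 0.209 (adjusted p = 0.876). Smad7, the inhibitory Smad, gave 0.03 ± 0.092 (adjusted p = 0.853).

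Of 16 tested genes of muscle precursors and growth, 3 were called higher at 23 and at 28 days. That is 18.8% at each age, against 3.49% and 2.96% of all probe sets. At 56 days 4 were called higher (25% against 16.6%), and at 112 days 6 higher and 1 lower (43.8% against 12.2%). Myogenin (Myog), which drives fusion of muscle precursors, rose in mdx by 1.54, 1.84, 2.26 and 2.43 at 23, 28, 56 and 112 days (SE 0.305, adjusted p of 0.00195 or less). Myod1, the myoblast determination factor, rose by 0.83, 0.94, 0.87 and 0.99 (SE 0.165, adjusted p of 0.0022 or less), the 56-day call being lost in a fit of that age alone (adjusted p = 0.0526). Myf5, a factor of muscle precursors, rose by 1.17 ± 0.218 at 56 days (adjusted p = 0.000348), and its 112-day rise was 1.59 ± 0.218 (adjusted p = 4.64e-06). Cdkn1a, the p21 cell cycle inhibitor, rose by 0.79, 1.08, 1.18 and 1.95 at 23, 28, 56 and 112 days (SE 0.216). Its dimmer probe set gave 0.59, 0.82, 0.39 and 0.14, without a call at any of these ages. As a mean over ages that probe set was called (0.37, adjusted p = 0.0195). Leaving out control 1 (0.65, adjusted p = 0.209), control 3 (0.81, 0.0831), mdx 1 (0.71, 0.205) or mdx 2 (0.53, 0.279) ended the 23-day call of Cdkn1a (adjusted p = 0.0336).

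The 3 further calls in this group were at 112 days. Mef2c, a muscle transcription factor, rose by 0.75 ± 0.204 (SE, adjusted p = 0.0119) in its brightest probe set. The 3 dimmer ones gave 0.73 (adjusted p = 0.00247), 0.21 and 0.27, the last 2 without a call. Without control 2 (0.68, adjusted p = 0.0562) or mdx 2 (0.66, 0.0663) the rise in the brightest probe set was no call. It was 0.53 without the high-albumin arrays, which leaves 1 control array at that age. Igf1, which favours muscle growth, fell by 0.78 ± 0.256 (adjusted p = 0.0435), while a dimmer probe set gave 0.07 without a call. Leaving out control 1 (-0.58, adjusted p = 0.208), control 2 (-0.77, 0.0936), mdx 1 (-0.77, 0.0814) or mdx 3 (-0.63, 0.18) ended that call. Igf2, its fetal relative, rose by 2.06 ± 0.652 (adjusted p = 0.0342), and this call was lost when any of the 6 arrays of that age was left out. Igf2 is known to decline after birth, but its probe set read 1066 ± 687 in controls and 2611 ± 1009 in mdx at 7 days against 44687 ± 4908 and 33914 ± 2819 at 14 days, so what it measures is in doubt.

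Markers of other cells also differed between genotypes, though not at every age. In a piece of whole muscle, fewer fibres and less Mstn RNA in each fibre cannot be told apart, and neither can more cells that make Fst and more Fst RNA in each of them. The sums below add linear signals, so bright genes weigh most in them, and they do not show the direction of each marker. All 6 macrophage markers were measured, of which Ctss reached 25439 and Adgre1 only 1813. At 7 days the summed signal of the 6 ran from 9378 to 10274 on control and from 9393 to 13319 on mdx arrays. At 112 days control arrays summed to 13474 to 14222 and mdx arrays to 47521 to 49215. Of 6 fibroblast markers 5 were measured, with 7-day sums of 81013 to 99001 on control arrays against 95211 to 125267 on mdx arrays. By 112 days the fibroblast sums were 33934 to 39718 against 86559 to 109844. All 6 markers of immature fibres were measured, and their 7-day sums were 37292 to 45518 (control) against 19069 to 39606 (mdx). The 112-day sums were 2301 to 3368 against 33474 to 45634, so the genotypes overlapped at 7 days and lay far apart at 112 days. The part of these cells in the Mstn and Fst differences was not tested.

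The 8 mature fibre markers, all measured, summed to 143179 to 178181 (control) against 134458 to 197251 (mdx) at 7 days. They did not overlap at 23 days, where mdx was the lower (171631 to 208557 against 142372 to 157666). At 112 days they summed to 160183 to 324460 (median 311832) against 225302 to 239478 (median 225366). Those ranges overlapped, with the mdx median the lower. Of 6 liver markers 5 were measured, and at 112 days their sums spread from 777.9 to 68605 on control and from 1537 to 20859 on mdx arrays. With the high-albumin arrays dropped, only 1 control array is left at 112 days, and the difference there was -2.48 for Mstn and 2.82 for Fst. The lining of the diaphragm is mesothelium, and its 6 markers summed to 4608 to 5365 (control) against 6179 to 7217 (mdx) at 7 days. At 56 days these sums were 6899 to 7785 against 3618 to 4463 and at 112 days 5298 to 7483 against 3503 to 4275. The mesothelial sum was thus the higher in mdx at 7 days and the lower at 28, 56 and 112 days, while the genotypes overlapped at 14 and 23 days. Of 5 adipocyte markers 3 were measured, with 112-day sums of 9342 to 10650 against 2983 to 7233. The part of these lists in the Mstn and Fst differences was not tested either. None of these lists had a gene at 0, the lowest reading being 6.7 for the fibrinogen gene Fgb.

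**Figure D5:**
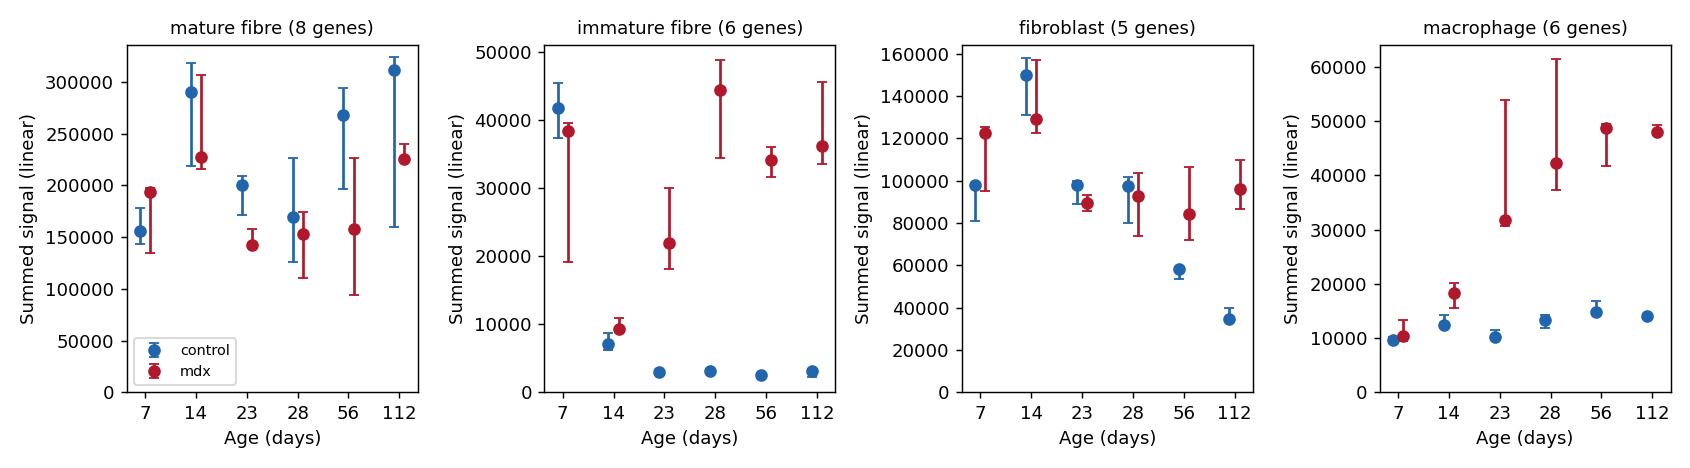
Summed linear signal of 4 marker lists against age in days for control (blue) and mdx (red), each point being the median of 3 arrays and each bar running from the lowest to the highest array. The macrophage and immature fibre sums of mdx lie above those of control from 14 days on, while the mature fibre sums overlap at 112 days.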

How the data were processed

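For 36 arrays the authors deposited 1 linear intensity per probe set, made by the array maker's standard protocol, per the labels. Not given in the sources used here are software and scaling, and intensity columns were used as deposited. Symbols come from the platform annotation, updated through RefSeq by gene ID, and 0 columns were left unmapped.

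Values were analysed as log2(intensity + 32), which understates changes of dim genes. Probe sets with at least 3 arrays above percentile 40 (a signal of 375.4) were kept, which left 9286, Mstn and Fst among them, from 6793 named genes. Group means over all 36 arrays were fitted with limma 3.58.1 (R 4.3.3), with variances moderated along a trend (residual degrees of freedom 24, prior median 6.14). Adjusted p-values are Benjamini-Hochberg over all tested probe sets, and under 0.05 is a call. For a pathway gene the brightest probe set was used. Permutation tests used 100000 resamples (20000 in the alternatives). The fit was tested on simulated data. For arrays, precision is limited by their number.

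The genes, lists and tests were chosen with earlier results of these data known. Named pathway genes are those called in mdx minus control, at an age or as a mean (at most 12 in a comparison), and 12 always given where measured (Gdf11, Inhba, Acvr2a, Acvr2b, Acvr1b, Fstl1, Fstl3, Smad2, Smad3, Smad7, Fbxo32 and Trim63, the last 2 not on the array). Genes alike to a member are the 5 highest and 3 lowest by Pearson r. Alternatives were 2 other pseudocounts, no filter or percentile 60, quantile normalization, array weights, the replicate block, the Gapdh ratio or albumin as covariate, no arrays with albumin above 10000, all probe sets of a gene, each age fitted alone and each array left out.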

Additional observations from a re-analysis of the deposited data

Results flagged for a closer look

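Results were picked out here where every mdx array lay on one side of every control array at one age and on the opposite side at another. The difference between those ages was not tested. Fst differed by -0.69 ± 0.361 (SE) at 7 days and by 1.93 ± 0.361 at 112 days (log2, mdx minus control). Of all 9286 tested probe sets, 13.5% met this description.

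Among pathway genes the same held for Acvr1b (1.65 at 7 days, -1.15 at 23 days), Acvr2b (0.37 at 14 days, -0.44 at 28 days), Bmp1 (0.90 at 56 days, -0.13 at 14 days) and Igf1 (0.71 at 56 days, -0.78 at 112 days). It also held for Igf2 (2.06 at 112 days, -0.40 at 14 days), Myog (2.43 at 112 days, -0.68 at 14 days) and Smad2 (0.75 at 56 days, -0.24 at 14 days). At 7 days the Igf2 probe set read 1066 (control) and 2611 (mdx), against 44687 and 33914 at 14 days, the reverse of the known fall after birth, so what it measures is in doubt. Among these pathway differences, those of Bmp1 and Smad2 at 56 days and of Igf1, Igf2 and Myog at 112 days were calls and the others were not. Mstn lay below control at all 6 ages and is not among them.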

How the results depend on the processing

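The Mstn difference between genotypes stayed below 0 in all alternatives at each age, between -1.10 and -0.70 at 7 days, -0.49 and -0.41 at 14, -0.33 and -0.17 at 23, -1.11 and -0.72 at 28, -1.28 and -0.92 at 56 and -2.48 and -1.80 at 112 days. For Fst the ranges were -0.79 to -0.54, 0.29 to 1.05, 0.41 to 0.68, 0.54 to 0.98, 0.80 to 1.40 and 1.47 to 2.82. Most alternatives, such as those without an array of another age, could not move the value of an age. The genotype differences that moved beyond the spread between replicates were Mstn at 56 days after quantile normalization (-1.28), and both genes at 112 days without the arrays with albumin above 10000 (-2.48 and 2.82), where fewer arrays remain, and values at 112 days with 1 control array left out: Mstn without replicate 3 (-2.27) and Fst without replicate 1 (1.47) or 2 (2.42). With each array left out in turn, Mstn at 112 days ran from -2.27 to -1.80 and Fst from 1.47 to 2.42. The F test of Fst over ages was lost with the Gapdh ratio as covariate (F = 2.49, adjusted p = 0.0723); the cause was not tested. The falls of both genes from 7 to 112 days, averaged over genotypes, were called in all alternatives run. For Fst that average joins -2.23 in controls and 0.39 in mdx. The relation within groups ran from -0.335 to 0.059 and was not called.

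The count of pathway genes called at 7 days was 1 with array weights and 0 to 1 with 1 array left out. At 23 days it was 12 with array weights and 2 to 6 with 1 array left out, 6 being without mdx replicate 3. At 112 days it was 5 without the arrays with albumin above 10000, and 6 to 11 with 1 array left out. Of 34 calls of single pathway genes, 20 held in every alternative and 24 in every fit without an array. Whether replicate numbers pair the arrays is not known. Of 18 same-numbered pairs, 1 had a correlation of deviations over 0.1 (range -0.225 to 0.147), a check that cannot exclude a pairing. With the replicate block the counts at 56 and 112 days were 10 and 8 (11 and 9 without it). The calls of Inhba (adjusted p = 0.0691) and Inhbc (0.0739) at 56 days, Igf1 at 112 days (0.0587) and the mean of Fstl1 (0.116) were lost. The members' differences (-2.03 and 1.93 at 112 days) cannot move under that block, since each group holds every replicate number once. The scatter of Fst and 3 arrays a group limit the precision.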
